A study of Mus musculus with 30 samples.

Results

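The effect of experimental autoimmune encephalomyelitis (EAE) on gene expression in the extensor digitorum longus (EDL) muscle was compared between day 14 and day 40. The day dependence of a gene is its EAE vs. Ctrl log2 fold change on day 40 minus the same value on day 14, and a negative value means that the EAE effect was lower on day 40. The comparison used 20 of the 30 mice, 5 per group. Of the 21073 genes measured, 9013 had a mean above 3 RPKM (reads per kilobase of exon, scaled to the reads of the library) in at least 1 of the 4 groups and were tested. Just above this limit were Rasl2-9 with a highest group mean of 3.00 RPKM and LYPD8 with 3.01 RPKM, and just below it were ASXL2 and UMPS, both with 3.00 RPKM after rounding. Of the tested genes 7659 passed the limit in all 4 groups and 204 only in EAE-induced mice on day 14. In these 204 the limit itself favoured a difference, although not all of them were called.

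All mice were wild-type female SJL/J mice. Ctrl mice were not immunized. EAE-induced mice received a peptide of proteolipid protein (PLP) in complete Freund's adjuvant (CFA) under the skin, without pertussis toxin, which in this strain gives a mild disease of relapses and remissions. Another group on each day received ovalbumin (OVA) in the same adjuvant, and these 10 OVA-immunized mice enter below only where they are named. Day 14 is the peak of disease in this model and day 40 lies in a second remission, after a relapse. Each mouse was sampled once, so the 2 days are different mice, each day with its own Ctrl mice. Age is not given in the sources used here.

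EAE is a T cell attack on the myelin of the central nervous system, and the EDL, a fast muscle of the lower hindlimb, is reached only indirectly, through its nerve supply, its use and the circulation. A muscle that is unused or has lost its innervation is known to express again the acetylcholine receptor genes, including the fetal gamma subunit, and the myogenic factor myogenin, and a wasting muscle raises ubiquitin ligases such as atrogin-1 and MuRF1. Interferon-stimulated genes, collagens and the genes of mitochondrial respiration are other programmes that muscle is known to adjust during systemic inflammation. Gene symbols are spelled as in the deposited table and all are mouse genes.

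The promoters of 5 genes of the neuromuscular junction and the interferon response are shown, because among the lists searched these held a searched motif in the largest shares of their promoters. The sequences are the 250 bases before and 50 bases after the start site in RefSeq (GRCm38.p6, the assembly of mm10), printed 5′ to 3′ on the strand of the gene, with the motif in capitals. In CHRNA1 (chr2:73580289-73580588, minus strand), CHRNG (chr1:87205561-87205860, plus strand) and MUSK (chr4:58285712-58286011, plus strand) the capitals mark the E-box CAGCTG, which reads the same on both strands. In ISG15 (chr4:156200769-156201068, minus strand) and IFIT3 (chr19:34583279-34583578, plus strand) they mark a pair of GAAA units separated by 2 bases, or its reverse complement, the core of an interferon-stimulated response element, with 3 overlapping matches in ISG15. The IFIT3 window lies at a start site inside the span of the gene given below, and not at its first base.
CHRNA1: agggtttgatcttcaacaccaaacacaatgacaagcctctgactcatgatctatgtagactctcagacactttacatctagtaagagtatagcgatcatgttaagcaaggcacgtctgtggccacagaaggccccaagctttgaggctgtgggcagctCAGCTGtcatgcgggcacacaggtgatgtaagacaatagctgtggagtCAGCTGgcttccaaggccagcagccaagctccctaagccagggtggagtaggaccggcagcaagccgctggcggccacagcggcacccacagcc
CHRNG: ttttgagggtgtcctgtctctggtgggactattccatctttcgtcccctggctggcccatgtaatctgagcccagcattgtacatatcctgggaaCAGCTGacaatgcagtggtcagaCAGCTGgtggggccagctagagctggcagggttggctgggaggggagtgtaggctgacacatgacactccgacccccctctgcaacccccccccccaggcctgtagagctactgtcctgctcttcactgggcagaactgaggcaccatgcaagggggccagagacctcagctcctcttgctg
MUSK: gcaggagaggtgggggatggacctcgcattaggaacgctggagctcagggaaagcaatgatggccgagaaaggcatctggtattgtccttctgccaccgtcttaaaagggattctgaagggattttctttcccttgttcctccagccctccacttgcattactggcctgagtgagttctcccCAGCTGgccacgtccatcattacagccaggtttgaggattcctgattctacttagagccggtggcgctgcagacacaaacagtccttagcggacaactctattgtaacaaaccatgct
ISG15: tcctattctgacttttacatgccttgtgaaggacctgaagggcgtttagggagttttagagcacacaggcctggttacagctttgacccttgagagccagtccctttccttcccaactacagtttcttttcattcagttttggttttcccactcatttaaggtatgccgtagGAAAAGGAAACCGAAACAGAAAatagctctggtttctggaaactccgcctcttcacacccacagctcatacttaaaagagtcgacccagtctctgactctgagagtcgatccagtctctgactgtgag
IFIT3: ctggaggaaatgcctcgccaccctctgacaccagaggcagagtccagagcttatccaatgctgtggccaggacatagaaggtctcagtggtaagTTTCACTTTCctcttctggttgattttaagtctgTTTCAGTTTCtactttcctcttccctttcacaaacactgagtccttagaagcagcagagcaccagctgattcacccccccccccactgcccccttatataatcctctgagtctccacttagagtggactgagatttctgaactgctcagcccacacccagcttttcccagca

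CAGCTG stood in 7 of 17 promoters of the neuromuscular junction genes (41.2%), against 15.2% of the 9307 promoters of tested genes and 16.9% of those of genes that were higher on day 14 and returned. The GAAA pair stood in 12 of 34 promoters of interferon response genes (35.3%), against 2.83% of all promoters. In the denervation genes CAGCTG stood in 1 of 14 promoters (7.14%), and the myogenin promoter held none of the motifs searched, which were these 2, TGACGTCA and AAGGTCA, on both strands. In the respiratory chain lists AAGGTCA stood in 3 of 34 promoters of complex I (8.82%) and 4 of 33 of complexes II to V (12.1%). Of all promoters 3.22% held it. TGACGTCA stood in 3 of 34 (8.82%) and 2 of 33 (6.06%) of the same promoters, against 3.06% of all. Promoters were found for 7221 of the tested genes. A match describes the letters of this window and says nothing of a factor's binding.

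The reads assigned to genes, estimated from the RPKM of single reads, ranged from 18.2M to 31.7M per mouse. Muscle identity was clear in every mouse, with ACTA1, the skeletal muscle actin, at 13676 to 21350.0 RPKM, the fast myosin MYH4 at 3518 to 8209 RPKM and the slow myosin MYH7 at 64.5 to 176 RPKM. The first principal component held 47.6% of the variance and placed the 5 EAE-induced mice of day 14 on one side, at 26.3 to 60.3, and the other 15 mice on the other side, at -27.8 to -7.79. The second component held 25.4%, and on it Ctrl replicate 1 of day 14 stood at 54.3 and Ctrl replicate 3 of day 40 at -37.6, with the remaining mice between. These 2 mice were also at the ends of the balance between short and long transcripts. Genes of the small intestine were present in all 15 mice of day 40 and nearly absent on day 14. The sum of 10 of them, chosen after the values were seen, was 0.0202 to 0.207 RPKM on day 14, and on day 40 it was 61.5 to 85.7 RPKM in Ctrl mice, 39.9 to 69.3 in OVA-immunized mice and 46.2 to 70.6 in EAE-induced mice. DEFA24, an intestinal defensin, was listed at 0 in all mice on day 14 and reached 21.2 to 33.7 RPKM in Ctrl mice and 13.6 to 28.3 RPKM in EAE-induced mice on day 40. Day and any difference in dissection or library preparation between the days cannot be told apart, and in bulk tissue fewer cells of a type and less RNA per cell cannot be told apart either.

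The day dependence was called in limma for 2912 genes, which had more than a 1.5-fold difference and an adjusted p (Benjamini-Hochberg) below 0.05, 32.3% of those tested. In 1040 genes (11.5%) the EAE effect was higher on day 40 than on day 14, and in 1872 (20.8%) it was lower. Without the 204 genes that passed the limit only in EAE-induced mice of day 14, these counts were 1040 and 1730. On day 14, 2421 genes were called between EAE-induced and Ctrl mice (26.9%), 1336 higher (14.8%) and 1085 lower (12.0%). On day 40 limma called 0 genes (0.00%), although 1066 had an unadjusted p below 0.05, and the smallest adjusted p was 0.375. With the 10 mice of day 40 fitted alone 12 genes had an adjusted p below 0.05 and 5 of them passed the fold threshold, and with quality weights for each mouse 30 genes were called on day 40, both fits chosen after seeing the data. In what follows, a value given for a gene without further words is its day dependence on the log2 scale, and ± gives the standard error. The groups did not overlap in 2837 genes on day 14 (31.5%) and in 461 genes on day 40 (5.11%).

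Of the 2421 genes called on day 14, 1983 (81.9%) returned, meaning that their day 40 fold change lay within 1.5 and their day dependence was called. Another 356 lay within 1.5-fold on day 40 with a day dependence that was not called, and these are undecided. The day 40 value stayed beyond 1.5-fold in the same direction in 32 genes and crossed control by more than 1.5-fold in 50 genes, without a call on day 40 in either case. Thus 0 genes persisted, overshot or appeared late as called genes. The absence of a call does not show that control levels were reached: the 95% interval of the day 40 fold change lay within 50% of the day 14 effect on the log2 scale in 958 genes (39.6%) and within 1.5-fold in 1407. Of the genes called on day 14, 196 had an unadjusted p below 0.05 on day 40, 70 in the same direction and 126 in the opposite one. In 871 further genes the day dependence was called without a call on day 14, and in 869 of these the fold changes of the 2 days had opposite signs. Opposite signs were nearly fixed by this choice, since without a call on either day few genes can otherwise reach a called day dependence. The 869 are therefore a description and not evidence of a reversal.

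**Figure D1:**
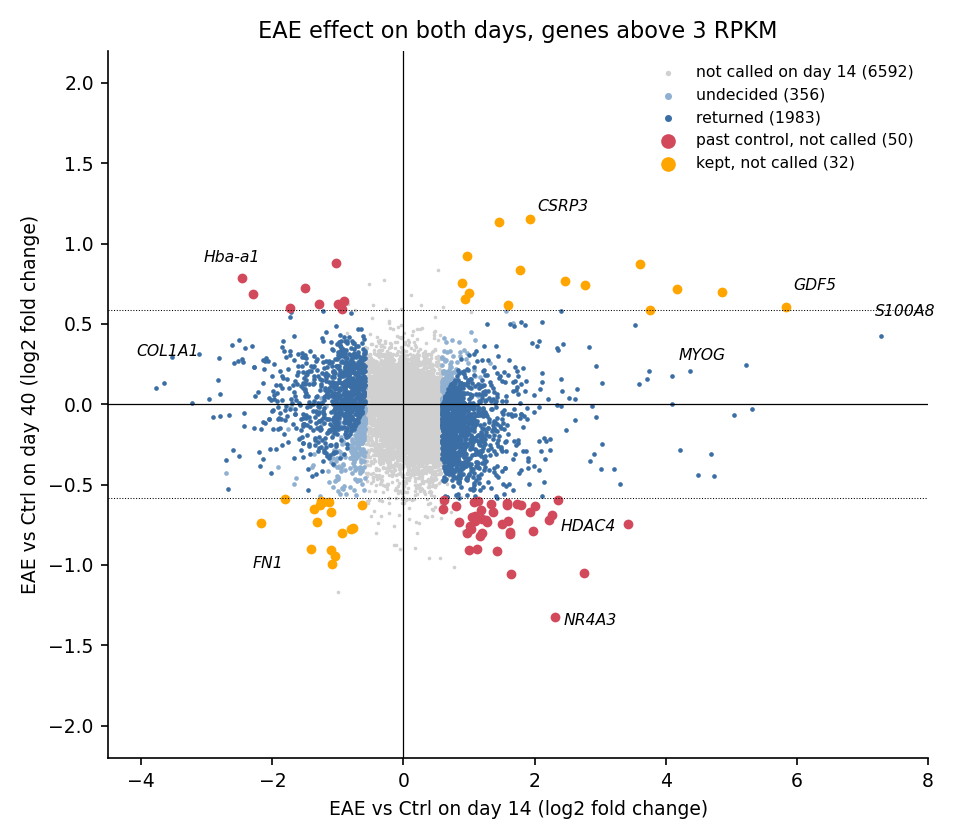
Log2 fold change of EAE-induced against Ctrl mice on day 14 (x axis) and on day 40 (y axis) for each of the 9013 genes tested, coloured by class, with dotted lines at a 1.5-fold change. The spread runs along the day 14 axis from -3.77 (COL1A1) to 7.28 (S100A8), while few genes pass the dotted lines on day 40.

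The share of the day 14 effect that was left on day 40 was estimated in each mouse as the slope, over the 2421 genes, of its day 40 difference from the mean of Ctrl mice on the day 14 fold change. In the 5 EAE-induced mice it was -18.0%, -0.126%, -12.8%, 2.30% and 6.74%, with a mean of -4.38% ± 10.5 (SD, n = 5). The Ctrl mice of day 40 lay between -8.31% and 6.55% around their own mean and the OVA-immunized mice between -11.7% and -0.558%. Of the 5 EAE-induced mice 2 lay within the range of the Ctrl mice, 1 lay just above it, and 2 lay below it, on the side opposite to the day 14 effect. For genes higher on day 14 the mean was -7.75%, and for genes lower on day 14 it was 0.192%. Of the 1336 genes higher on day 14, 963 had a day 40 value below 0, and of the 1085 lower genes 548 had one above 0. These are 72.1% and 50.5%, beside 59.8% of all tested genes below 0 and 40.2% above 0. After the correction for exon length described below, they were 56.2% and 50.2%, with all tested genes split almost evenly about 0.

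**Figure D2:**
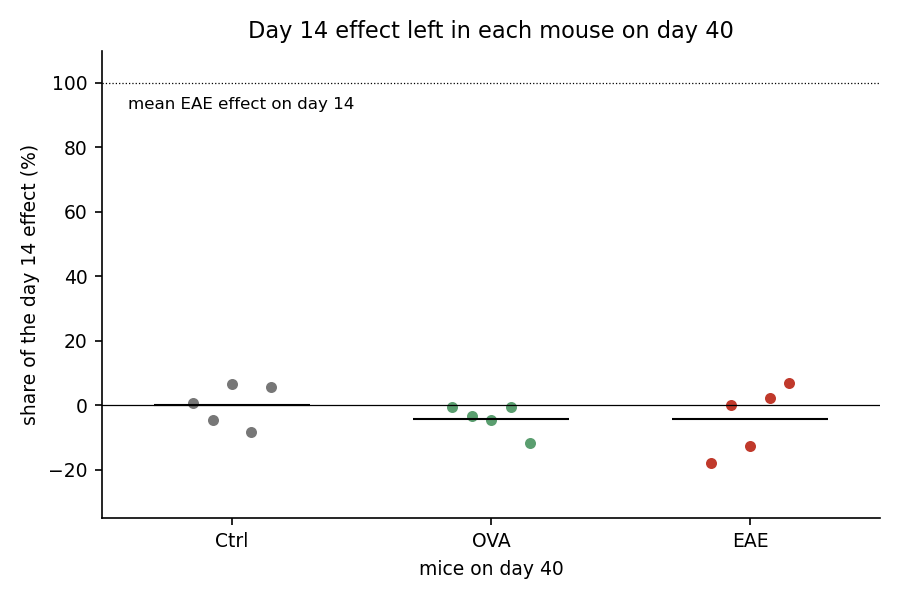
Share of the mean day 14 EAE effect that remained in each mouse on day 40, in percent, for Ctrl, OVA-immunized and EAE-induced mice, with a point per mouse and the mean as a line. The 15 mice lie between -18.0% and 6.74%, far from the dotted line at 100%.

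The day dependence joins the change of the EAE-induced mice between the days with that of the Ctrl mice, and the latter was not small. Between the days 426 genes were higher and 374 lower in Ctrl mice (8.88% of those tested, 4.73% higher and 4.15% lower). In 925 of the 2912 genes with a called day dependence the Ctrl mice changed by more than the EAE-induced mice (10.3% of those tested), 261 of them higher and 664 lower. The call of the Ctrl change rested on single mice, since without Ctrl replicate 1 of day 14 the counts were 111 higher and 212 lower. The median day dependence over all genes was -0.15 (log2). Quantile normalization brought this median to -0.01 and moved the split of the calls from 1040 higher and 1872 lower (35.7% higher) to 1308 higher and 1224 lower (51.7% higher).

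In the acetylcholine receptor of the muscle endplate, the fetal and shared subunits were higher on day 14 and returned. CHRNA1, the alpha subunit (chr2:73563281-73580338), whose promoter is shown above, was at 6.84, 6.36, 6.49, 7.49 and 6.34 RPKM in Ctrl mice and at 84.7, 69.2, 25.8, 48.6 and 50.6 RPKM in EAE-induced mice on day 14. On day 40 it was at 6.30, 5.38, 5.27, 5.71 and 7.98 RPKM in Ctrl mice and at 5.51, 5.40, 5.68, 5.62 and 6.51 RPKM in EAE-induced mice. Every EAE-induced mouse of day 14 was above 25 RPKM and every other Ctrl or EAE-induced mouse under 8 RPKM, and the day 40 groups overlapped. The log2 fold change was 2.93 ± 0.20 (SE) on day 14 and -0.08 ± 0.20 on day 40, a day dependence of -3.01 ± 0.29 (adjusted p = 1.65e-06). CHRNG, the fetal gamma subunit (chr1:87205811-87211835), rose on day 14, with 0.742 to 1.74 RPKM in Ctrl mice and 3.88 to 16.4 RPKM in EAE-induced mice, and lay at 0.425 to 0.834 RPKM in EAE-induced mice on day 40, with a day dependence of -3.41 ± 0.46. CHRND, the delta subunit, and chrnb1, the beta subunit, did the same with -2.41 and -1.77. CHRNE, the adult epsilon subunit, differed from the rest, with 9.03 to 14.4 RPKM in Ctrl mice and 6.83 to 10.6 RPKM in EAE-induced mice on day 14, and its day dependence of 0.56 ± 0.19 missed the 1.5-fold threshold.

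Outside the endplate receptor, CHRNA9, an acetylcholine receptor subunit better known from the inner ear, was at 4.43, 10.7, 2.53, 2.46 and 4.97 RPKM in EAE-induced mice on day 14 and at 0 to 0.0903 RPKM in the 15 other mice. Its day dependence was -5.11 ± 0.66. CHRNA9, CHRNG, MUSK and NCAM1 passed the expression limit only through that group, so that the limit favoured a difference, and their values are a description. MUSK, the receptor kinase that organises the endplate, was at 0.315, 0.677, 0.432, 0.782 and 1.33 RPKM in Ctrl mice and at 6.30, 19.4, 5.15, 5.10 and 9.16 RPKM in EAE-induced mice on day 14, groups that did not overlap. On day 40 MUSK was at 1.13, 1.20, 2.07, 0.552 and 1.59 RPKM in Ctrl mice and at 0.348, 1.28, 0.438, 1.01 and 0.694 RPKM in EAE-induced mice, so that it had crossed control by -0.74 on the log2 scale, with overlapping groups and without a call. The adhesion molecule NCAM1, which spreads along the surface of fibres that have lost their nerve, had a day dependence of -2.64 ± 0.31. The reverse course was seen in ACHE, the acetylcholinesterase, COLQ, the collagen tail that anchors it, and SEMA6C, a semaphorin, with 1.62, 0.96 and 1.18, and COLQ lost its call against OVA-immunized mice (0.51). Of the 17 tested genes of this list (of 18), 8 rose and 4 fell on day 14, and the day dependence was lower in 9 and higher in 3. Without the 4 genes that passed only through EAE-induced mice of day 14, 4 of 13 rose and 4 fell, and the day dependence was lower in 5 and higher in 3. The list median was 0.41 on day 14 and -0.11 on day 40, beside 0.11 and -0.05 over all genes tested.

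Transcription factors of the denervation response returned with the receptor genes. Myogenin, MYOG (chr1:134290004-134292548), was at 10.5, 9.07, 11.3, 11.4 and 8.41 RPKM in Ctrl mice and at 273, 369, 112, 65.9 and 216 RPKM in EAE-induced mice on day 14. On day 40 MYOG was at 7.32, 12.8, 7.08, 14.4 and 11.4 RPKM in Ctrl mice and at 7.61, 7.38, 14.2, 17.3 and 14.7 RPKM in EAE-induced mice. The day 14 groups were far apart and the day 40 groups overlapped, with a log2 fold change of 4.10 ± 0.36 and 0.18 ± 0.36 and a day dependence of -3.93 ± 0.50 (adjusted p = 1.70e-05). The other myogenic factors MYOD1 and MYF6 had smaller values, -2.24 ± 0.39 and -1.63 ± 0.29. RUNX1, a factor raised by denervation, had -3.20 ± 0.42, after passing the expression limit only through EAE-induced mice of day 14, GADD45A, a stress gene of denervated fibres, -2.59 ± 0.50, and CDKN1A, the cell cycle inhibitor p21, -2.70 ± 0.34. HDAC4, the deacetylase that relays the loss of nerve activity to myogenin, rose on day 14, with 1.85 to 3.86 RPKM in Ctrl mice and 9.70 to 27.0 RPKM in EAE-induced mice, and on day 40 was at 1.98, 3.10, 2.31, 3.46 and 2.55 RPKM against 4.28, 3.84, 6.76, 2.36 and 5.59 in Ctrl mice. Its day 40 value of -0.69 ± 0.30 had an unadjusted p of 0.0316 and the groups overlapped.

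SLN, the calcium pump inhibitor sarcolipin, had -2.06 ± 0.37, and PVALB, the calcium buffer of fast fibres, went the other way with 1.66 ± 0.30. The developmental myosins were not called: MYH3 was at 2.88 to 7.48 RPKM in all 20 mice with a day dependence of -0.36 ± 0.29 (adjusted p = 0.324), and MYH8 had -1.09 ± 0.50 (adjusted p = 0.0804). MYH8 was called with the replicate number as a block (-1.09) and with quality weights (-0.79). Leaving out Ctrl replicate 4 (-1.30) or EAE replicate 1 (-1.32) of day 14 also gave a call. In all, 15 of the 20 listed denervation and myogenic genes were tested, 10 rose and 1 fell on day 14, and the day dependence was lower in 11 and higher in 1. Without 2 genes that passed only through EAE-induced mice of day 14 it was lower in 9 of 13. Their median went from 2.07 on day 14 to -0.03 on day 40, and in the Ctrl mice it moved by 0.05 between the days. With OVA-immunized mice in place of Ctrl mice the day dependence was lower in 10 and higher in 1.

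**Figure D3:**
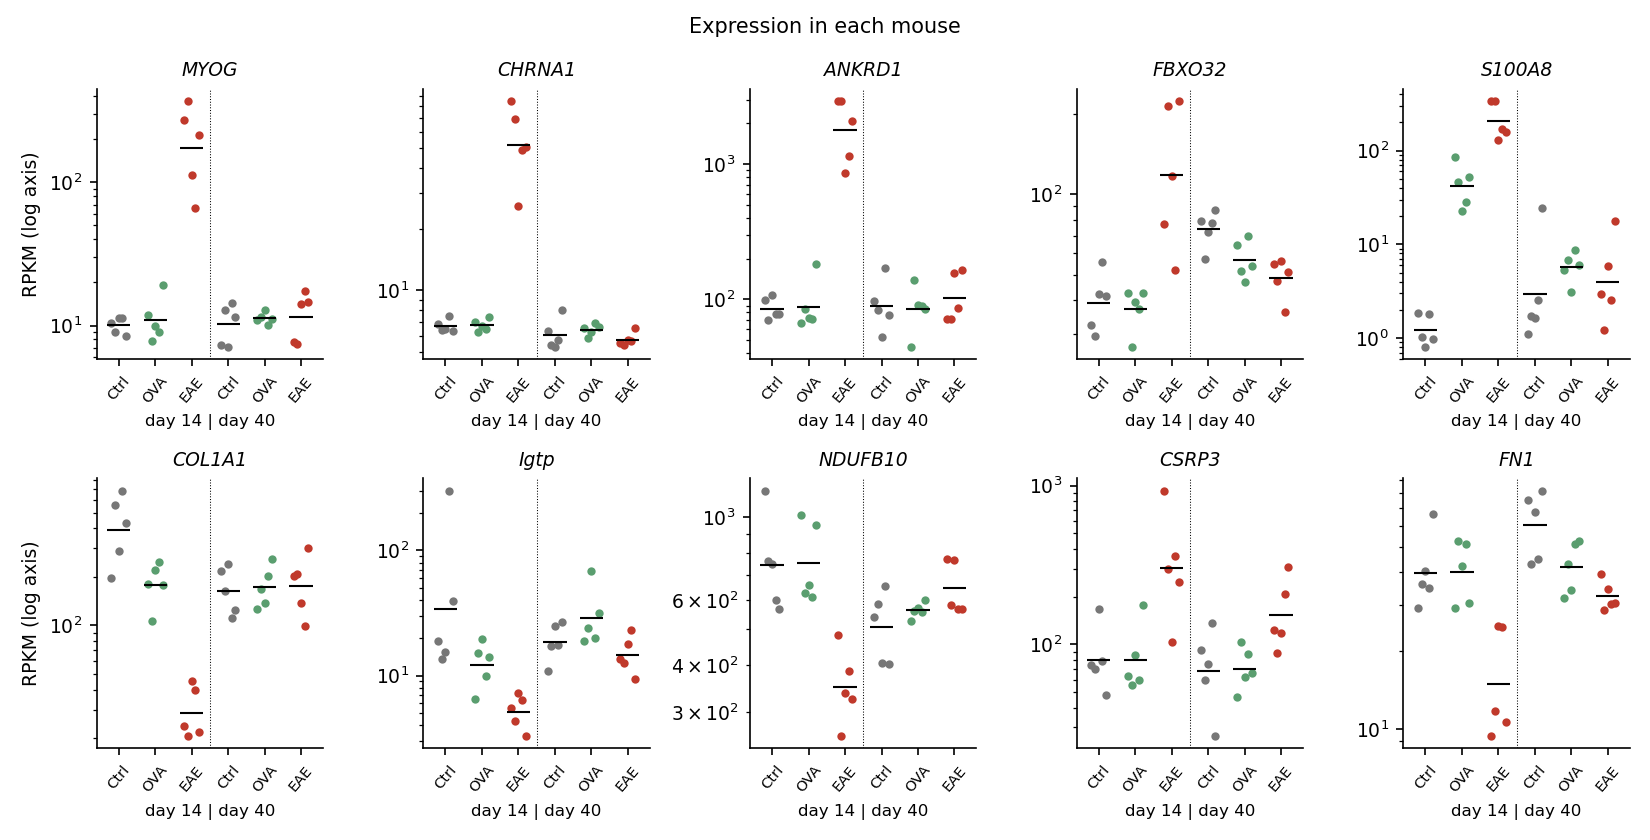
RPKM of 10 genes in each mouse on a log axis, for Ctrl (grey), OVA-immunized (green) and EAE-induced (red) mice on day 14 and, right of the dotted line, day 40, with the mean of the log values as a line. MYOG, CHRNA1 and ANKRD1 stand apart only in EAE-induced mice of day 14, while FBXO32 and COL1A1 also differ between the Ctrl mice of the 2 days, and S100A8 is also high in OVA-immunized mice of day 14.

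Genes of the Z-disc and of the response to stretch rose on day 14 in 10 of 14 and fell in 0, and the day dependence was lower in 10. ANKRD1, a titin-bound ankyrin repeat protein (chr19:36111965-36119844), was at 98.6, 70.2, 108, 77.4 and 78.3 RPKM in Ctrl mice and at 2911, 2912, 856, 1154 and 2094 RPKM in EAE-induced mice on day 14. It was then at 97.0, 83.9, 52.8, 169.7 and 77.1 RPKM in Ctrl mice and at 71.4, 71.4, 158, 86.6 and 165 RPKM in EAE-induced mice on day 40, groups that overlapped, and the day dependence was -4.17 ± 0.48 (adjusted p = 6.48e-06). Its relative ANKRD2 was at 133, 123, 104, 198 and 47.0 RPKM in Ctrl mice and 127, 117, 173, 236 and 349 RPKM in EAE-induced mice on day 40, overlapping groups, with a log2 fold change of 0.74 ± 0.39 against 2.78 ± 0.39 on day 14. CSRP3, the muscle LIM protein, was at 74.1, 69.8, 168, 78.6 and 47.8 RPKM in Ctrl mice and 932, 301, 103, 362 and 246 RPKM in EAE-induced mice on day 14. On day 40 CSRP3 was at 92.8, 60.0, 75.0, 136 and 26.4 RPKM in Ctrl mice and 123, 88.7, 118, 209 and 308 RPKM in EAE-induced mice, with 2 EAE-induced mice above all Ctrl mice. Its log2 fold change was 1.92 ± 0.49 on day 14 and 1.15 ± 0.49 on day 40 (unadjusted p = 0.0282), and its day dependence of -0.77 ± 0.69 was not called. The chaperone CRYAB had -1.02 ± 0.28, and MYOZ2, calsarcin-1, kept nearly the same value on both days (0.46 and 0.43), under the fold threshold on each. The list median was 1.30 on day 14 and 0.22 on day 40.

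In the atrophy list (19 of 20 genes tested) 9 genes rose on day 14 and 0 fell, and Ctrl mice also changed between the days. The day dependence was lower in 9, or in 5 against OVA-immunized mice (14.2% of tested genes were). FBXO32, the ubiquitin ligase atrogin-1 (chr15:58175879-58214892), was at 32.4, 29.3, 42.4, 55.6 and 41.6 RPKM in Ctrl mice and at 77.4, 214, 117, 52.0 and 223 RPKM in EAE-induced mice on day 14. On day 40 FBXO32 was at 79.4, 57.0, 72.3, 78.3 and 87.3 RPKM in Ctrl mice and at 54.6, 47.1, 56.2, 36.1 and 50.9 RPKM in EAE-induced mice, with every EAE-induced mouse below every Ctrl mouse. The log2 fold change was 1.58 ± 0.30 on day 14 and -0.61 ± 0.30 on day 40 (unadjusted p = 0.0507), and FBXO32 rose by 0.92 in Ctrl mice between the days (adjusted p = 0.0314), while OVA-immunized mice differed by 0.60 (adjusted p = 0.199). TRIM63, the ligase MuRF1, had 1.49 ± 0.22 on day 14 and -0.28 ± 0.22 on day 40, with a Ctrl change of 0.55 (adjusted p = 0.0694). FOXO3, a factor that drives these ligases, and FBXO40, another muscle ligase, had a day dependence of -2.43 ± 0.60 and -1.81 ± 0.61, beside a Ctrl change of 0.96 and 1.01. Ctrl replicate 1 of day 14 was the lowest of all 20 mice in both genes, and without it the day dependence was -1.95 and -1.26. Against OVA-immunized mice both lost their call, with -1.29 (adjusted p = 0.0774) and -1.01 (adjusted p = 0.0834). The list median moved in Ctrl mice by 0.41 between the days, and after correction for exon length by 0.13.

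Targets of the glucocorticoid receptor rose on day 14 in 11 of 18 and fell in 1, and 7 had a lower day dependence. FKBP5 and LCN2 passed the expression limit only through EAE-induced mice of day 14, and of the other 16 genes 9 rose and 5 had a lower day dependence. Over all lists and genes left by the same exclusion, 8809 in number, 1203 rose and 1730 had a lower day dependence. FKBP5, a chaperone of that receptor, was at 1.76, 3.47, 5.25, 2.39 and 2.00 RPKM in Ctrl mice and at 13.2, 15.7, 8.07, 15.9 and 27.8 RPKM in EAE-induced mice on day 14. The values were 1.93, 1.46, 1.82, 1.98 and 1.82 RPKM in Ctrl mice and at 2.68, 2.76, 2.07, 2.31 and 4.32 RPKM in EAE-induced mice on day 40, and all EAE-induced mice were still above all Ctrl mice. The log2 fold change was 2.40 ± 0.28 on day 14 and 0.58 ± 0.28 on day 40 (unadjusted p = 0.0528), just inside 1.5-fold. GLUL, glutamine synthetase, had a day dependence of -1.17 ± 0.23. TSC22D3 (GILZ), among the most direct targets, rose on day 14 (0.66 ± 0.16) and its day dependence of -0.58 ± 0.23 missed the fold threshold. PDK4, which restrains pyruvate oxidation, had 0.39 ± 0.40 on day 14 and -0.96 ± 0.40 on day 40 (day dependence -1.35 ± 0.56, adjusted p = 0.055). Of 16 clock genes 7 rose on day 14, and the day dependence was lower in 7 and higher in 1. Against OVA-immunized mice it was higher in 1 and lower in 3, near the 14.2% of all tested genes. PER1, which belongs to both lists, was at 2.29, 3.36, 4.00, 10.1 and 11.4 RPKM in Ctrl mice and 30.1, 43.8, 23.1, 22.0 and 20.2 RPKM in EAE-induced mice on day 14, and at 10.9, 12.7, 16.1, 16.2 and 20.7 RPKM in Ctrl mice and at 3.92, 5.47, 8.83, 22.5 and 21.6 RPKM in EAE-induced mice on day 40. Its day dependence was -2.95 ± 0.64 (adjusted p = 0.0014), beside a Ctrl change of 1.52, and with OVA-immunized mice as reference it was -0.91 (adjusted p = 0.173).

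The largest day dependence of all genes belonged to S100A8, a calcium-binding protein of neutrophils (chr3:90669071-90670034). It was at 1.85, 1.03, 0.807, 1.82 and 0.979 RPKM in Ctrl mice and at 335, 334, 130.1, 168 and 156 RPKM in EAE-induced mice on day 14. On day 40 it was at 1.12, 1.72, 1.66, 2.58 and 24.6 RPKM in Ctrl mice and at 2.99, 1.22, 5.84, 2.55 and 17.6 RPKM in EAE-induced mice. Replicate 5 was high in both groups of day 40, and these groups overlapped. The day dependence was -6.86 ± 0.95 (adjusted p = 2.93e-05), -6.10 without Ctrl replicate 5 of day 40 and -7.39 without EAE replicate 5. OVA-immunized mice carried S100A8 at a mean of 46.5 RPKM on day 14 and 6.03 RPKM on day 40, and against them the day dependence was -2.82 (adjusted p = 0.00516).

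Its partner S100A9 had 3.61 ± 0.64 on day 14 and 0.88 ± 0.64 on day 40, and against OVA-immunized mice its day dependence changed sign from -2.73 to 0.42 (adjusted p = 0.655). Ngp, a granule protein, and LCN2, lipocalin-2, had -3.46 ± 0.66 and -3.57 ± 0.71 against Ctrl mice and -0.39 and -1.48 against OVA-immunized mice. Of 14 neutrophil markers 5 were tested, all 5 rose on day 14 and the day dependence was lower in 4. The sum of the 14 markers was 5.09 to 11.9 RPKM in Ctrl mice, 71.0 to 241 in OVA-immunized mice and 219.9 to 406 in EAE-induced mice on day 14, and 5.41 to 70.4, 16.4 to 36.8 and 8.69 to 54.9 on day 40. All 5 tested markers fell in OVA-immunized mice between the days (1.60% of tested genes did). The markers were thus high in both immunized groups on day 14, and their part in the other results was not tested. Of the 5 tested markers 3 passed the expression limit only through the EAE-induced mice of day 14, so their counts are a description.

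Among the genes with the most negative day dependence were genes that this muscle otherwise barely expresses. GDF5, a growth factor of the BMP family, was at 13.9, 26.4, 7.53, 2.58 and 19.7 RPKM in EAE-induced mice on day 14, at 0 to 0.156 RPKM in Ctrl mice and at 0.0221 to 0.134 RPKM in EAE-induced mice on day 40. Its day dependence was -5.23 ± 0.68, and 3 of the 5 Ctrl mice of day 40 were listed at 0. Ces2c, a carboxylesterase, was at 12.0, 12.2, 4.24, 8.81 and 7.18 RPKM in EAE-induced mice on day 14 and at 0.0434 to 0.543 RPKM in all others (-5.19 ± 0.50). Trdc, the constant segment of the T cell receptor delta chain, was at 5.87, 7.47, 2.22, 3.18 and 3.66 RPKM and at 0 to 0.325 RPKM in the same way (-4.93 ± 0.63), while 0 of 12 listed lymphocyte markers reached the expression limit and their sum was 5.58 to 15.1 RPKM in Ctrl mice and 2.66 to 6.19 RPKM in EAE-induced mice on day 14. The keratin KRT18 was at 21.0, 16.8, 5.10, 4.54 and 9.12 RPKM in EAE-induced mice on day 14 and at 0.0639 to 1.18 RPKM in the others (-4.98 ± 0.68). Its partner KRT8 was at 8.33, 4.57, 0.923, 3.00 and 3.30 RPKM in EAE-induced mice and at 0 to 0.142 RPKM in Ctrl mice on day 14, but at 1.22 to 2.02 and 1.06 to 1.71 RPKM on day 40. The day dependence of -4.99 ± 0.55 for KRT8 thus held a Ctrl change of 3.80, larger than the change of -1.19 in EAE-induced mice, and the intestinal genes named above were present on day 40 in the same libraries. GDF5, Ces2c, CHRNA9, KRT8, KRT18 and Trdc passed the expression limit only through the EAE-induced mice of day 14.

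Collagen genes fell on day 14 and had a positive day dependence. COL1A1, the alpha 1 chain of type I collagen (chr11:94936224-94953042), was at 196, 557, 290.1, 686 and 429 RPKM in Ctrl mice and at 23.8, 20.6, 45.5, 39.9 and 21.8 RPKM in EAE-induced mice on day 14. On day 40 COL1A1 was at 219, 163, 240.5, 112 and 125 RPKM in Ctrl mice and at 203, 208, 137, 98.7 and 301 RPKM in EAE-induced mice. The day 14 groups were far apart, the day 40 groups overlapped, and the day dependence was 3.87 ± 0.48 (adjusted p = 1.13e-05). COL1A1 fell by 1.26 on the log2 scale in Ctrl mice between the days (adjusted p = 0.0151) while the EAE-induced mice differed by 2.62. COL1A2, the alpha 2 chain, had 3.24 ± 0.48 and COL3A1, type III collagen, 1.80 ± 0.27, the latter with a Ctrl change of -0.06. Of 20 tested collagens 19 fell on day 14 and the day dependence was higher in 16, with list medians of -1.26 on day 14, -0.19 on day 40 and 1.02 for the day dependence. Against OVA-immunized mice the day dependence was also higher in 16 of the 20, with a median of 0.79.

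The enzymes and partners of collagen went with it: of 32 tested genes of collagen processing and matrix 25 fell on day 14 and 17 had a higher day dependence. LOXL2, which cross-links collagen, was at 7.37 to 10.2 RPKM in Ctrl mice and 1.21 to 2.41 RPKM in EAE-induced mice on day 14, and at 6.36 to 7.26 and 5.43 to 8.14 RPKM on day 40 (2.31 ± 0.21). SPARC, a collagen-binding protein, had 2.50 ± 0.36, the carboxypeptidase CPZ 3.78 ± 0.44, the elastic fibre protein MFAP4 3.10 ± 0.31, CILP2, a cartilage matrix protein, 3.43 ± 0.41 and 1500015O10Rik, the gene of augurin, 3.00 ± 0.33. Tendon markers fell on day 14 in 8 of 9, among them the tendon membrane protein TNMD (-2.83 ± 0.24 on day 14, 0.15 ± 0.24 on day 40). SCX, the transcription factor scleraxis, was the exception, rising on day 14, with 11.6 to 20.2 RPKM in Ctrl mice and 35.8 to 166 RPKM in EAE-induced mice, and with 6.67 to 10.9 RPKM in EAE-induced mice on day 40 (-1.98 ± 0.41). PI16, a marker of fibroblast progenitors, had 2.51 ± 0.27, and of 11 fibro-adipogenic markers 9 fell on day 14 and 7 had a higher day dependence. The summed level of these markers was 1646 to 1858 RPKM in Ctrl mice and 839.7 to 1196 RPKM in EAE-induced mice on day 14, and 1298 to 1503 and 1292 to 1561 RPKM on day 40.

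Fibronectin, FN1 (chr1:71585473-71653280), behaved otherwise. It was at 29.2, 36.0, 40.5, 34.6 and 66.3 RPKM in Ctrl mice and at 9.43, 11.8, 24.8, 24.5 and 10.7 RPKM in EAE-induced mice on day 14, and on day 40 at 75.0, 43.0, 67.9, 44.9 and 81.9 RPKM in Ctrl mice and at 39.2, 28.7, 34.5, 30.1 and 30.4 RPKM in EAE-induced mice. The groups did not overlap on either day. The log2 fold change was -1.41 ± 0.27 on day 14 and -0.90 ± 0.27 on day 40 (unadjusted p = 0.00291, adjusted p = 0.375), the day dependence of 0.51 ± 0.38 was not called, and FN1 was called on day 40 with quality weights. The day dependence of FN1 was called, however, against OVA-immunized mice (1.06) and after the correction for exon length described below (1.10). POSTN, periostin, kept -0.63 ± 0.25 on day 40 after -1.27 ± 0.25 on day 14, with overlapping groups on day 40. Its day dependence was not called in the main fit, but was called against OVA-immunized mice (1.09) and with quality weights (0.97).

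Interferon-stimulated genes were low in EAE-induced mice on day 14, and on day 40 0 of them was called. IFIT3 (chr19:34583119-34588982), an antiviral protein, was at 21.0, 6.49, 12.2, 12.5 and 4.01 RPKM in Ctrl mice and at 1.58, 0.902, 1.90, 1.12 and 1.23 RPKM in EAE-induced mice on day 14. The values were 13.9, 5.87, 6.02, 5.74 and 6.28 RPKM in Ctrl mice and at 7.91, 4.53, 9.60, 8.72 and 4.54 RPKM in EAE-induced mice on day 40, with overlapping groups, and the day dependence was 2.72 ± 0.50 (adjusted p = 3.58e-04). ISG15, a ubiquitin-like protein, and IRF7, the regulator of interferon production, had 2.80 ± 0.62 and 2.60 ± 0.63. In all, 36 of 52 listed genes were tested, 32 fell on day 14 and the day dependence was higher in 26, with medians of -1.64 on day 14 and -0.17 on day 40. Only 16 of the 36 passed the expression limit in all 4 groups, as 7659 of the 9013 tested genes did. The others passed only in the groups where they were higher, so the counts of this list are in part fixed by the limit.

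The size of this change depended on the reference. OVA-immunized mice had IFIT3 at a mean of 2.78 RPKM on day 14 and 8.94 RPKM on day 40. Against them the day dependence of IFIT3 was 0.73 (adjusted p = 0.141), and of the 36 genes 5 were higher (8.30% of tested genes were) and 1 lower. Between the days 25 of the 36 rose in OVA-immunized mice (2.50% of tested genes did), by a median of 0.84, while the EAE-induced mice moved by a median of 1.30 and the Ctrl mice by -0.22. One Ctrl mouse also stood out: Igtp, an interferon-induced GTPase, was at 18.9, 13.7, 15.4, 301 and 39.6 RPKM in Ctrl mice of day 14 and at 3.28 to 7.26 RPKM in EAE-induced mice. Without Ctrl replicate 4, 23 of the 36 genes had a higher day dependence, the list median was 1.18 instead of 1.47, and Igtp had 1.59 instead of 2.37. Against OVA-immunized mice Igtp and IRF7 lost their call, with 0.25 and 0.65. The related GTPase iigp1, at 195 RPKM in the same mouse, had 2.29 ± 1.02 (adjusted p = 0.071), and GBP4, a guanylate-binding protein, was lower on day 14 (-1.80 ± 0.56, and -1.25 without Ctrl replicate 4) and had -0.59 ± 0.56 on day 40, without a call.

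Of 14 genes of antigen presentation 13 fell on day 14 and 12 had a higher day dependence, and against OVA-immunized mice 7 did, as a description with shared EAE-induced mice. H2-Ab1, a class II chain, had 2.04 ± 0.45, CD74, the class II invariant chain, 1.97 ± 0.46, and B2M, the shared light chain of class I, 1.27 ± 0.39 (without Ctrl replicate 4 of day 14, 0.99, and against OVA-immunized mice 0.56, not called). Of 15 complement genes 9 fell on day 14, and the day dependence was higher in 8 against Ctrl mice and in 3 against OVA-immunized mice. Macrophage markers fell on day 14 in 7 of 11 and had a higher day dependence in 3, with a sum of 346 to 515 RPKM in Ctrl mice and 162 to 363 RPKM in EAE-induced mice on day 14. Their part in the class II and complement results was not tested. SOCS1, an inhibitor of interferon signalling, had 2.06 ± 0.42, with a change of -1.95 in Ctrl mice and of 0.11 in EAE-induced mice between the days.

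Nuclear genes of the respiratory chain were low in EAE-induced mice on day 14 and had a positive day dependence. Of 36 genes of complex I, 26 fell on day 14, 0 were called on day 40, where all 36 had a value above 0, and 33 had a higher day dependence. NDUFB10, a subunit of the membrane arm (chr17:24722060-24724423), was at 1179.9, 763, 749, 601 and 568 RPKM in Ctrl mice and at 481, 258, 337, 385 and 325 RPKM in EAE-induced mice on day 14. By day 40 it stood at 539.8, 584, 406, 655 and 403 RPKM in Ctrl mice and at 771, 583, 766, 567 and 566 RPKM in EAE-induced mice. The groups were apart on day 14 and overlapped on day 40, with -1.09 ± 0.19 on day 14, 0.34 ± 0.19 on day 40 (unadjusted p = 0.0929) and a day dependence of 1.43 ± 0.27 (adjusted p = 5.07e-04). The complex I medians were -0.77 on day 14, 0.26 on day 40 and 1.03 for the day dependence, beside -0.15 over all genes tested. Complexes II to V, with 39 genes tested of 41, went in the same direction, with 27 lower on day 14, 33 with a higher day dependence and a median of 1.02. Examples were Cox7a1, the muscle isoform of a cytochrome oxidase subunit, with 1.94 ± 0.25, and CYCS, cytochrome c, with 1.34 ± 0.19.

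As measured, a large part of this came from the Ctrl mice, and a smaller part after the correction for exon length described below. Between the days 20 of the 36 complex I genes fell in Ctrl mice (4.15% of tested genes did), the list by a median of -0.65, while the EAE-induced mice moved by 0.41. In 23 of the 33 genes with a called day dependence the Ctrl mice changed by more. NDUFS7, a subunit of the peripheral arm, was at 393 to 748 RPKM in Ctrl mice of day 14 and 237 to 389 RPKM in those of day 40, a change of -0.82 against a change of 0.47 in EAE-induced mice. NDUFS1, the largest subunit, went the other way, with 0.10 in Ctrl mice and 0.71 in EAE-induced mice and a day dependence of 0.62 ± 0.13, which fell under the fold threshold with quantile normalization (0.56). NDUFA7 was not called (0.33 ± 0.21). Against OVA-immunized mice 33 of the 36 also had a higher day dependence, with a median of 0.91, and between the days the OVA-immunized mice moved by a median of -0.52.

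**Figure D4:**
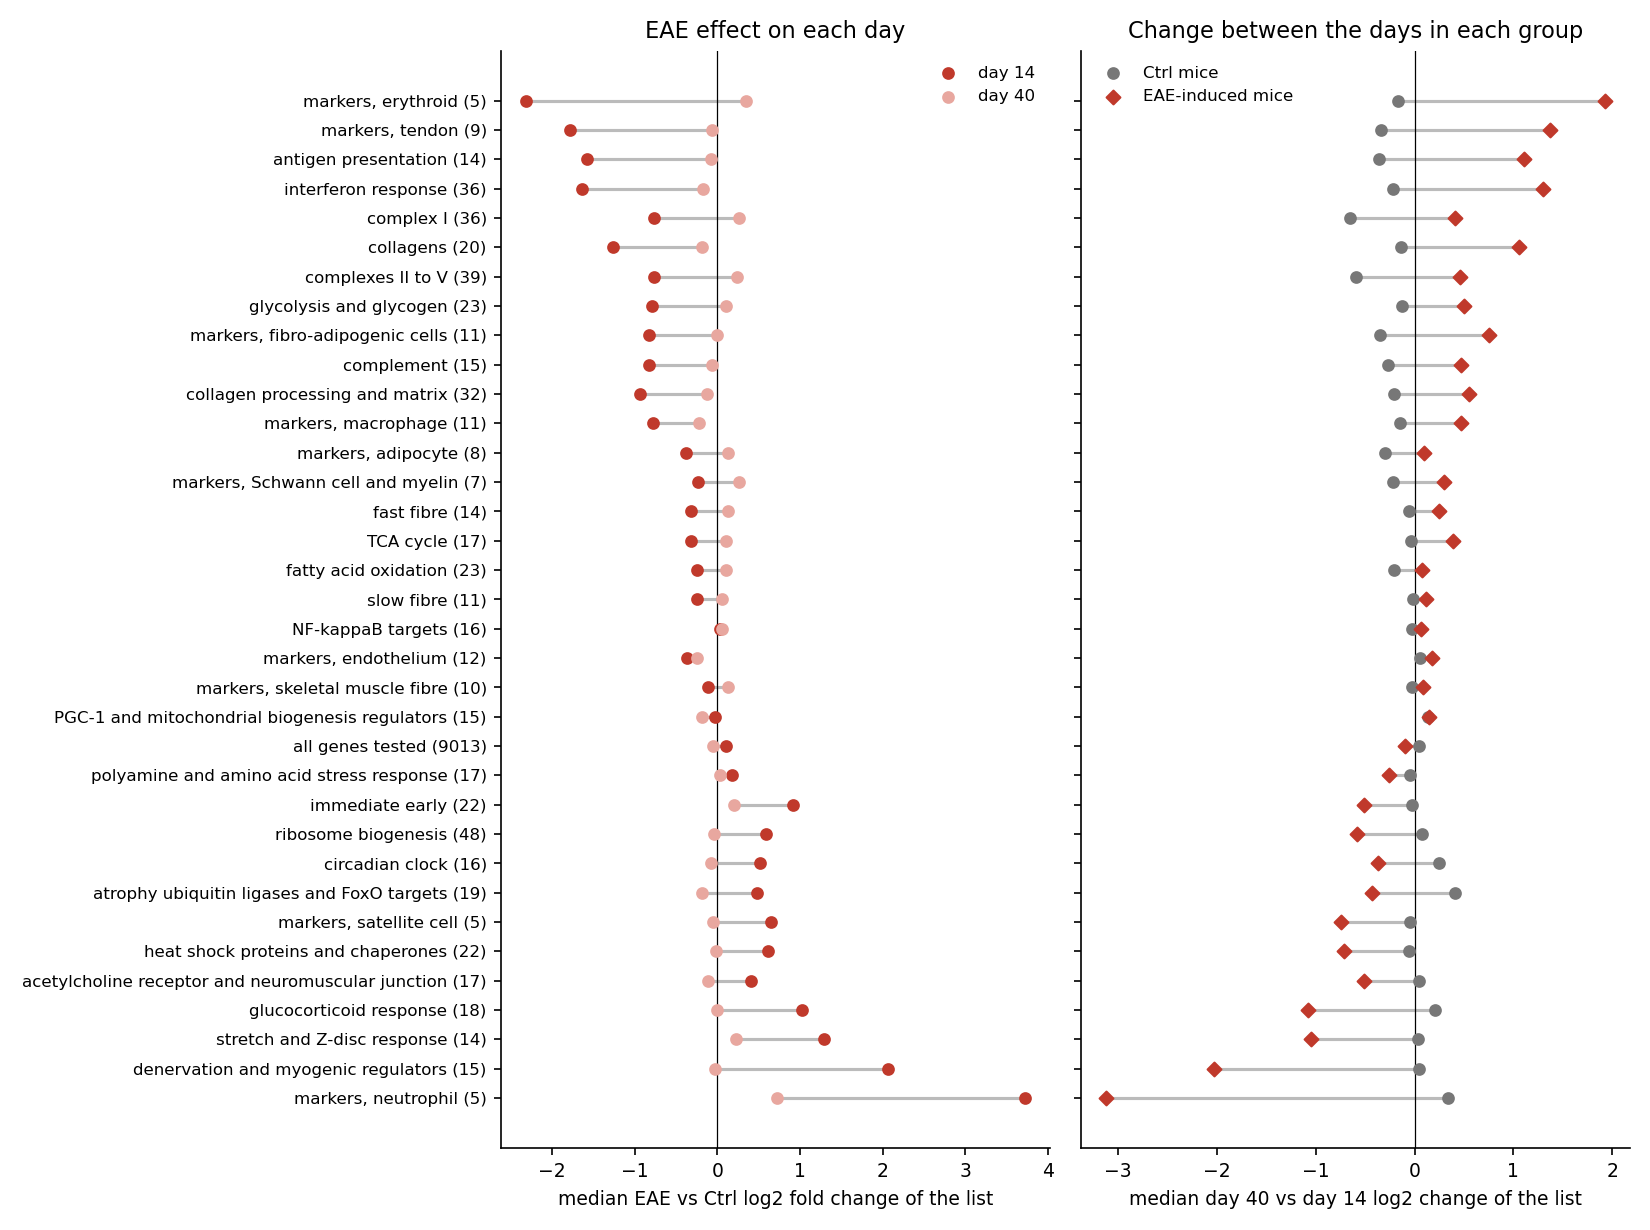
Median log2 values of each gene list with at least 5 tested genes, with the number of tested genes in brackets: on the left the EAE vs. Ctrl fold change on day 14 (dark) and day 40 (light), on the right the change from day 14 to day 40 in Ctrl mice (grey circles) and in EAE-induced mice (red diamonds). The day 40 median is largest in the neutrophil markers at 0.72, followed by the erythroid markers at 0.35, and the Ctrl mice moved most in complex I (-0.65) and in complexes II to V (-0.59).

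Transcript length moved with these values. Over 8975 genes with an exon length, which share the same libraries, the Pearson correlation with log2 exon length was 0.465 for the Ctrl change, -0.102 for the change of EAE-induced mice, 0.231 for the day 14 effect, -0.537 for the day 40 effect and -0.368 for the day dependence. With the genes split into 5 equal bins, from the shortest to the longest, the median day dependence went from 0.22 through 0.03, -0.15 and -0.34 to -0.53. The median exon length was 1014.5 bases in complex I and 3110 over all genes. In single mice the difference between the shortest and the longest bin, taken against the mean of all mice, ran from -0.134 to 0.955 in Ctrl mice of day 14 and from -0.767 to 0.121 in those of day 40, with the extremes in Ctrl replicate 1 of day 14 and Ctrl replicate 3 of day 40. In EAE-induced mice it ran from -0.440 to 0.454 on day 14 and from -0.157 to 0.301 on day 40.

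After each mouse was corrected for its trend with exon length, a step chosen after seeing the data, the day dependence was higher in 1222 genes and lower in 1088. In complex I it was then higher in 26 of 36, with a median of 0.73, and the Ctrl change was called in 4, with a median of -0.23. The EAE-induced mice then moved by a median of 0.49 between the days. Without both outlying Ctrl mice the day dependence of complex I was higher in 29 of 36, with a median of 0.81. The Ctrl change was then called in 5, with a median of -0.43. The day 40 median of complex I was 0.26 as measured and 0.16 after the correction. Why short transcripts weighed more in some mice was not tested.

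**Figure D5:**
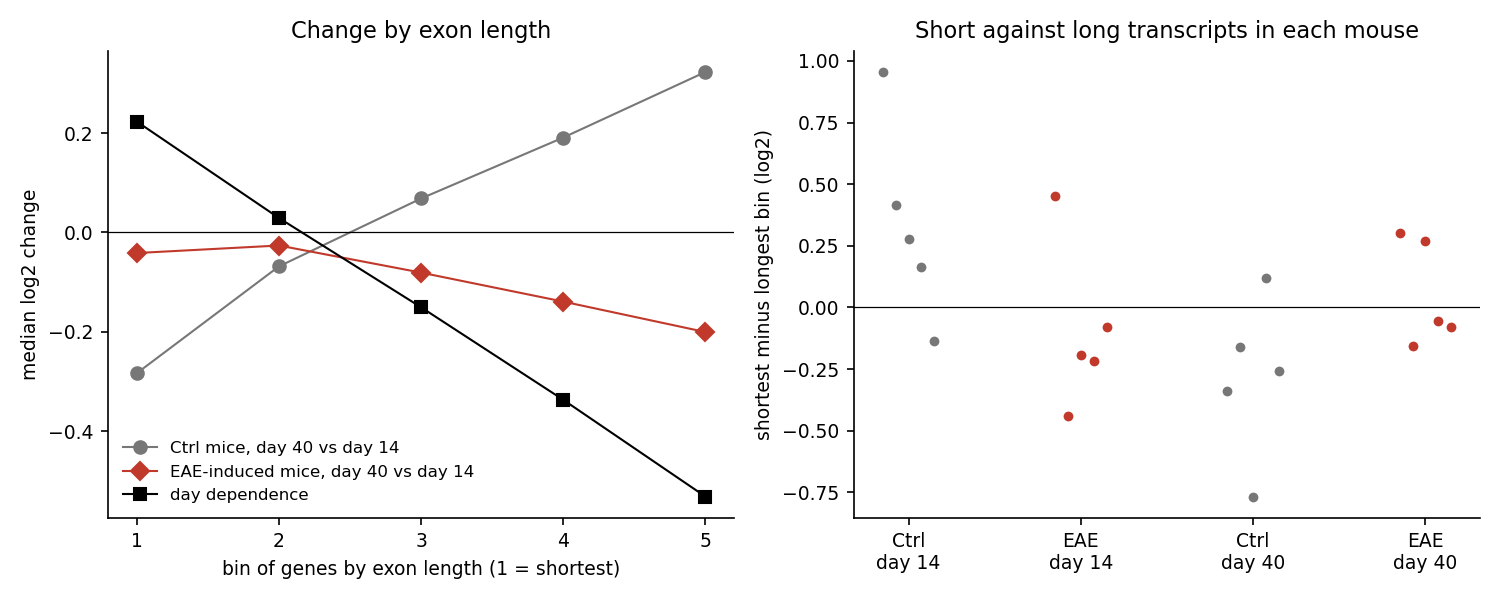
Left, median log2 change between the days in Ctrl mice and EAE-induced mice and median day dependence, for 5 bins of genes from the shortest to the longest exon length. Right, the log2 level of the shortest bin minus the longest bin in each mouse of the 4 groups: Ctrl mice of day 14 reach 0.955 and those of day 40 go down to -0.767.

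Glucose metabolism showed the same direction with less of it in Ctrl mice. Of 23 genes of glycolysis and glycogen 13 fell and 1 rose on day 14, the day dependence was higher in 13 and lower in 2, and the medians were -0.79 on day 14, 0.11 on day 40 and -0.12 for the Ctrl change. ENO3, the muscle enolase, was at 3894 to 4685 RPKM in Ctrl mice and 942 to 2076 RPKM in EAE-induced mice on day 14, and at 2779 to 3831 and 3777 to 4382 RPKM on day 40 (1.77 ± 0.23). LDHA, lactate dehydrogenase A, had 1.84 ± 0.24. GBE1, the glycogen branching enzyme, ran opposite, rising on day 14, with 23.0 to 43.1 RPKM in Ctrl mice and 78.1 to 144 RPKM in EAE-induced mice (-1.51 ± 0.24). In the citric acid cycle 3 of 17 genes fell on day 14 and 6 had a higher day dependence, led by IDH2, mitochondrial isocitrate dehydrogenase, with 190.5 to 222 RPKM in Ctrl mice and 32.6 to 102 RPKM in EAE-induced mice on day 14 (2.00 ± 0.30). In fatty acid oxidation the day dependence was higher in 7 of 23.

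The regulators of mitochondrial genes were mixed, with 6 of 15 lower on day 14 and a day dependence that was higher in 4 and lower in 1. Its list median was -0.07, and after the correction for exon length 0.28, with 4 higher and 0 lower. Against OVA-immunized mice the median was 0.21, with 5 higher and 0 lower. The day 40 median of the list was -0.18 as measured and -0.0003 after the correction. ESRRA, a nuclear receptor that drives respiratory genes, was at 78.5, 69.5, 71.3, 65.9 and 55.5 RPKM in Ctrl mice and 44.1, 29.8, 39.8, 39.0 and 33.4 RPKM in EAE-induced mice on day 14, and at 50.3, 51.8, 43.8, 57.0 and 38.5 RPKM in Ctrl mice and at 65.4, 60.8, 66.3, 55.5 and 55.4 RPKM in EAE-induced mice on day 40. It crossed from -0.88 ± 0.12 to 0.34 ± 0.12 (unadjusted p on day 40 = 0.0103), with overlapping groups on day 40 and a day dependence of 1.21 ± 0.17. PERM1, a muscle regulator downstream of PGC-1, had 1.81 ± 0.34. PPARGC1A, the coactivator PGC-1alpha itself, was at 7.88, 7.57, 9.01, 8.11 and 7.98 RPKM in Ctrl mice and 4.94, 6.76, 5.23, 7.01 and 7.23 RPKM in EAE-induced mice on day 40. All 5 EAE-induced mice lay below all Ctrl mice there, with -0.39 ± 0.12 (unadjusted p = 0.00333) against -0.20 ± 0.12 on day 14, and the day dependence of -0.19 ± 0.17 was not called.

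Genes of ribosome biogenesis rose on day 14 in 24 of 48 tested genes and fell in 0, and the day dependence was lower in 25, with a median Ctrl change of 0.08. BOP1, which processes ribosomal RNA, was at 10.9 to 13.4 RPKM in Ctrl mice and 22.7 to 37.3 RPKM in EAE-induced mice on day 14, and at 10.3 to 13.1 and 10.0 to 11.4 RPKM on day 40 (-1.37 ± 0.16). The nucleolar helicase DDX21 had -1.58 ± 0.22, and nucleophosmin, NPM1, -0.06 ± 0.22 (adjusted p = 0.833). Of 22 heat shock genes 12 rose and 1 fell on day 14, and the day dependence was lower in 13 and higher in 1. Against OVA-immunized mice it was lower in 8 (14.2% of tested genes were) and higher in 1 (8.30%). HSPB8, a small heat shock protein of chaperone-assisted autophagy, had -1.93 ± 0.29, while HSPB6, another small heat shock protein, had 0.80 ± 0.20, or 0.28 without a call under quantile normalization. HSPH1, a nucleotide exchange factor of HSP70, was at 27.2, 25.0, 30.6, 30.3 and 30.3 RPKM in Ctrl mice and 18.6, 19.5, 20.8, 21.1 and 21.0 RPKM in EAE-induced mice on day 40, with all EAE-induced mice below all Ctrl mice. It moved from 1.08 ± 0.11 on day 14 to -0.50 ± 0.11 on day 40, and with the 10 mice of day 40 fitted alone that value had an adjusted p of 0.0428 under a 1.5-fold change.

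Immediate early genes, transcription factors that respond within minutes to a stimulus, rose on day 14 in 14 of 22 (14.8% of tested genes did). The day dependence was lower in 5 of the 22, near the 20.8% of all tested genes. JUNB was at 15.1, 23.9, 14.1, 19.2 and 18.8 RPKM in Ctrl mice and 25.2, 23.0, 39.6, 45.7 and 24.3 RPKM in EAE-induced mice on day 40, with a log2 fold change of 0.76 ± 0.25 (unadjusted p = 0.00643) after 0.89 ± 0.25 on day 14. FOS was at 13.6, 14.0, 7.71, 5.98 and 3.11 RPKM in Ctrl mice and 21.4, 11.2, 13.9, 40.4 and 10.9 RPKM in EAE-induced mice on day 40, with 1.14 ± 0.45 after 1.46 ± 0.45. EGR1 had 0.66 ± 0.30 after 0.94 ± 0.30, and ATF3 0.77 ± 0.44 after 2.46 ± 0.44. In these 4 genes EAE-induced mice had the higher mean on both days, the groups overlapped on day 40, and 0 of the 4 was called there. Their day dependence was not called in JUNB, FOS and EGR1, and it was -1.69 ± 0.62 in ATF3 (adjusted p = 0.0313). ATF3 lost that call against OVA-immunized mice (-0.94), under quantile normalization (-1.41), with quality weights (-1.09), with no expression limit, without both outlying Ctrl mice (-1.52), and in 8 of the 20 fits that left out 1 mouse (-1.35 to -1.57).

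Of 14 fast fibre genes, which encode contractile proteins, 3 fell on day 14 and 6 had a higher day dependence (3 against OVA-immunized mice), with a median of 0.43. Under quantile normalization the fast fibre day dependence was higher in 3 and lower in 1, with a median of -0.001. Of 11 slow fibre genes 1 rose and 4 fell on day 14, with a day dependence higher in 4 and lower in 1. Of 5 erythroid markers all fell on day 14 and 4 had a higher day dependence. Hba-a1, an alpha globin, was at 195, 159, 336, 354 and 95.2 RPKM in Ctrl mice and 87.7, 16.8, 67.0, 56.9 and 12.4 RPKM in EAE-induced mice on day 14, and at 388, 175, 134, 119 and 45.8 RPKM in Ctrl mice and at 679, 132, 525, 80.8 and 199.8 RPKM in EAE-induced mice on day 40, with a wide spread in each group (3.24 ± 0.90, adjusted p = 0.00691). Globin copies share reads, so values of a single copy are uncertain. Of 12 endothelial markers 4 fell on day 14, of 5 satellite cell markers 3 rose and had a lower day dependence, and of 7 Schwann cell markers 1 fell. Of all tested genes 14.8% rose and 12.0% fell on day 14. The other lists were mixed, with a day dependence called in 8 of 17 genes of polyamine metabolism and the amino acid stress response, in 5 of 16 NF-kappaB targets, in 1 of 4 tested cell cycle genes, in 3 of 8 adipocyte markers and in 4 of 10 markers of the muscle fibre. It was called in 32.3% of all tested genes, which is near most of these shares.

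The 32 genes that stayed beyond 1.5-fold on day 40 were 15 higher and 17 lower genes, 5 of which did not overlap between the groups on day 40 and 18 of which had an unadjusted p below 0.05. Those named here outside the lists were chosen after their values were seen. PITX3, a homeobox factor, was at 5.07, 4.54, 4.72, 4.28 and 3.70 RPKM in Ctrl mice and 10.2, 10.5, 6.13, 7.95 and 10.2 RPKM in EAE-induced mice on day 14, and at 1.20, 1.76, 1.09, 1.56 and 1.22 RPKM in Ctrl mice and at 4.10, 3.36, 2.16, 1.58 and 2.70 RPKM in EAE-induced mice on day 40. Its fold change against Ctrl mice was nearly equal on both days, 0.97 ± 0.21 and 0.92 ± 0.21 (unadjusted p on day 40 = 2.14e-04, adjusted p = 0.375), although its level was lower on day 40 in Ctrl mice (-1.65) and in EAE-induced mice (-1.70). Against OVA-immunized mice, by contrast, PITX3 had a called day dependence of -1.25. SPACA6, known from sperm and egg fusion, had -0.77 ± 0.21 and -0.77 ± 0.21, and the protease HTRA4 -1.05 ± 0.28 and -0.94 ± 0.28, both lower in EAE-induced mice. VSIG2, an immunoglobulin-domain protein, was at 2.83, 4.65, 4.95, 3.79 and 3.31 RPKM in Ctrl mice and 1.79, 1.89, 2.04, 2.01 and 2.26 RPKM in EAE-induced mice on day 40, with all EAE-induced mice lower, and was called with the 10 mice of day 40 fitted alone (-0.91 ± 0.30 in the fit of 20 mice). With quality weights 7 genes persisted as called genes, among them FN1, PITX3, SPACA6 and HTRA4.

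The 50 genes that crossed control were 41 higher and 9 lower genes of day 14, and in 28 of them the Ctrl mice changed by more than the EAE-induced mice. Their median exon length was 5708 bases, against 3110 over all genes. Their number was 17 after the correction for exon length, 13 without Ctrl replicate 3 of day 40 and 111 without Ctrl replicate 4 of day 40. The mast cell tryptases Tpsab1 and TPSB2, chosen after their values were seen, were among the 9. Tpsab1 was at 8.54, 6.10, 6.70, 4.01 and 5.72 RPKM in Ctrl mice and 3.04, 2.56, 2.65, 3.17 and 3.12 RPKM in EAE-induced mice on day 14, and at 3.11, 3.87, 1.83, 2.89 and 1.54 RPKM in Ctrl mice and at 6.62, 3.21, 5.11, 4.85 and 4.36 RPKM in EAE-induced mice on day 40. It moved from -1.03 ± 0.23 to 0.88 ± 0.23 (unadjusted p = 8.23e-04) and TPSB2 from -1.50 ± 0.23 to 0.72 ± 0.23, with overlapping groups on day 40. Between the days Tpsab1 changed by -1.23 in Ctrl mice and by 0.68 in EAE-induced mice, and its day dependence of 1.92 lost its call against OVA-immunized mice (0.70, adjusted p = 0.0832). The tryptases are close copies, so reads may be split between them. GADD45B, a stress gene, moved from -1.72 ± 0.23 to 0.60 ± 0.23. With quality weights 6 genes were called past control, among them ATP5G1 and LONRF1, a ubiquitin ligase (0.63 ± 0.13 to -0.57 ± 0.13), and 7 appeared late, among them MDM4, an inhibitor of p53 (-0.96 ± 0.28), and GADD45G (0.75 ± 0.30, values without weights).

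Some of the largest day dependences rested on Ctrl mice. ATP5G1, a subunit of the ATP synthase membrane ring, was at 27.1, 20.6, 18.8, 21.6 and 12.1 RPKM in Ctrl mice and 14.6, 8.19, 11.3, 8.03 and 10.6 RPKM in EAE-induced mice on day 14, and at 3.64, 4.45, 3.28, 4.91 and 4.93 RPKM in Ctrl mice and at 7.34, 5.14, 7.23, 5.46 and 8.35 RPKM in EAE-induced mice on day 40. It changed between the days by -2.18 in Ctrl mice and by -0.63 in EAE-induced mice (day dependence 1.55 ± 0.28), and on day 40 all EAE-induced mice were above all Ctrl mice. The pseudogenes Uqcrh-ps1 and Gapdh-ps15 had 2.33 ± 0.51 and 1.43 ± 0.33, and their reads, like those of ATP5G1, may be shared with near-identical copies. MRGPRG, an orphan receptor, had 3.83 ± 0.77 with a Ctrl change of -2.10. In the other direction NR4A3, an immediate early nuclear receptor, was at 0.0453, 0.813, 0.935, 4.67 and 3.38 RPKM in Ctrl mice of day 14 and 4.72, 2.93, 10.4, 9.32 and 10.4 RPKM in those of day 40 (-3.64 ± 1.13). SLC25A25, a mitochondrial carrier, and Zfp874b, a zinc finger gene, had -2.39 ± 0.81 and -2.01 ± 0.65. Ctrl replicate 1 of day 14 was the lowest Ctrl mouse of that day in these 3 genes, and without it the day dependence was -2.89, -1.98 and -1.35. Without that mouse the day 14 effect of NR4A3 had an adjusted p of 0.0665 and was no longer called. Against OVA-immunized mice the day dependence was -0.79 (adjusted p = 0.549) for NR4A3 and -0.28 (adjusted p = 0.729) for SLC25A25.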

How the data were processed

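RNA of the EDL muscle was sequenced from poly(A) directional libraries, with paired reads. Per the submitters' processing notes, Subread, featureCounts and the mm10 build were used. The deposited table holds log2(RPKM + 1) values computed by the authors for 21073 genes and 30 mice, with 0.0001 where a gene had no read (25.8% of values). Values were turned back into RPKM. Reads assigned per mouse were estimated from the RPKM that 1 read gives on a gene of known length. Of the symbols 27 had been turned into dates. RefSeq matched 20852 genes.

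Genes with a mean above 3 RPKM in any of the 4 groups were tested on log2(RPKM + 0.1) with limma 3.58.1 in R 4.3.3, as a linear model of 4 group means with an intensity trend and 5 mice per group. A gene was called at a Benjamini-Hochberg adjusted p below 0.05, over all 9013 genes, and a fold change above 1.5. Errors after ± are standard errors of the fit on the log2 scale, which understates changes of low genes, and p-values are two-sided. Persisted and overshot genes needed a call on day 40. Genes were named from the lists and by a rule. It took the 8 largest day dependences in each direction among called genes whose groups did not overlap on day 14, the 6 returned genes with the largest day 14 change in each direction, the 6 largest persisted, overshot and late genes (0 here), and the 5 largest Ctrl changes in each direction among genes with a called day dependence and a larger change in Ctrl than in EAE-induced mice. One gene that the rule names is not reported here. Members and lists were chosen with earlier results of these data known. On simulated data of 8230 genes, sizes were set by the day 14 log2 change. The day dependence was called in 93.3% of 75 genes with a change of 1 and 98.7% of 75 with 2, with 11 false calls. Some of these genes were set to overshoot on day 40, so that their true day dependence was larger than the day 14 change. The simulated noise was drawn for each gene alone, without the exon length trend of the real mice, so these rates may be too favourable. Promoter sequences and coordinates are from RefSeq on GRCm38.p6. Alternatives were other pseudocounts, limits, scalings, references, a replicate block, and leaving out each mouse.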

Additional observations from a re-analysis of the deposited data

Results flagged for a closer look

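Among 110 groups of 5 mice examined, 10 held a mouse whose gap to its nearest neighbour passed Dixon's 95% critical value of 0.71 (9.09%). The 5% that this value implies holds for independent normal values. Most groups here were RPKM of genes picked for large values, in the same mice, so 9.09% does not show an excess. In S100A8 these were Ctrl replicate 5 of day 40 at 24.6 RPKM and EAE replicate 5 of day 40 at 17.6 RPKM, and EAE replicate 5 of day 40 also stood apart in KRT18 at 1.18 RPKM. In KRT8 Ctrl replicate 1 of day 14 stood at 0.142 RPKM. In MRGPRG the mice apart were EAE replicate 4 of day 14 at 0.261 RPKM and Ctrl replicate 4 of day 40 at 1.83 RPKM, and in SLC25A25 EAE replicate 2 of day 14 at 70.0 RPKM. The estimated assigned reads of Ctrl replicate 5 (18.2M) and EAE replicate 3 (31.7M) of day 14 stood apart from their groups. On the first principal component Ctrl replicate 1 of day 14 was at -27.8, apart from the other 4 Ctrl mice of that day.

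The EAE effect differed between the days, by the interaction term in limma with Benjamini-Hochberg adjustment, in 1040 genes upward and 1872 downward. Among the genes reported, the largest negative values (log2) were -6.86 for S100A8, -5.23 for GDF5, -5.19 for Ces2c, -5.11 for CHRNA9, -4.99 for KRT8, -4.98 for KRT18 and -4.93 for Trdc. All of these but S100A8 passed the expression limit only through EAE-induced mice of day 14, so that the limit favoured a difference and their values are a description. The largest positive values were 3.87 for COL1A1, 3.83 for MRGPRG, 3.78 for CPZ, 3.43 for CILP2, 3.24 for Hba-a1, 3.24 for COL1A2, 3.10 for MFAP4 and 3.00 for 1500015O10Rik. The genes picked for the largest Ctrl changes among those where Ctrl mice changed more than EAE-induced mice had, besides KRT8 and MRGPRG, day dependence values of -3.64 for NR4A3, -2.95 for PER1, -2.39 for SLC25A25, -2.01 for Zfp874b, 2.33 for Uqcrh-ps1, 2.06 for SOCS1, 1.55 for ATP5G1 and 1.43 for Gapdh-ps15.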

How the results depend on the processing

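Over 20 fits that each left out 1 mouse, the day dependence was called higher in 878 to 1159 genes and lower in 1550 to 2076, the day 14 effect in 1040 to 1496 and 925 to 1195, and the day 40 effect in 0. The Ctrl change was called higher in 111 genes (without Ctrl replicate 1 of day 14) to 770 (without Ctrl replicate 5 of day 14) and lower in 212 to 523. Returned genes numbered 1667 to 2225, undecided 320 to 432, kept 22 to 40 and past control 13 (without Ctrl replicate 3 of day 40) to 111 (without Ctrl replicate 4 of day 40), and the remaining share -7.11% to -0.94%. With log2(RPKM + 1) the Ctrl change was higher in 244 genes, 14 were kept and 21 past control. With a limit of 1 RPKM these were 652 higher in Ctrl mice, 614 undecided and 78 past control. With no expression limit 2014 genes were lower on day 14, 1 lower on day 40, 803 higher in Ctrl mice, 1054 undecided, 99 kept, 80 past control and 1 late. Quantile normalization gave 1224 genes with a lower day dependence and 263 higher in Ctrl mice, and median-of-ratios scaling 237 higher and 583 lower in Ctrl mice. Without a fold threshold the day 14 effect was higher in 3073 and lower in 1963, the Ctrl change in 1396 and 976, with 3747 returned and 1201 undecided. Against OVA-immunized mice 11 genes were past control, and S100A9 reversed to 0.42. Among the day dependence values of named genes, the OVA reference left 98 with the same call, 4 gained and 13 lost it, and over all fits that left out 1 mouse 2367 values had the same call, 23 gained and 10 lost it. The cause of these differences was not tested. Alternatives chosen after seeing the data were quality weights (7 higher and 23 lower on day 40, 26 past control, 7 persisted, 6 overshot and 7 late), the exon length correction (1088 lower day dependence, 155 higher and 218 lower in Ctrl mice, 17 past control), leaving out both outlying Ctrl mice (40 higher and 126 lower in Ctrl mice, 10 past control) and the 10 mice of day 40 alone (1 higher and 4 lower). A fit with the replicate number as a block gave 1056 higher and 1859 lower for the day dependence, 1341 and 1085 for day 14 and 0 for day 40, with 1981 returned; it moved no count by over 1.5 times. The labels do not say whether the replicate numbers pair the mice. Same-numbered mice correlated from -0.53 to 0.50, and in 1 of 10 pairs a mouse's best partner was its own number. Both extremes fell in the pairs of the 2 outlying Ctrl mice, so these values cannot settle whether same-numbered mice were handled together. Depth was estimated from the values, and low genes rest on few reads.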
